A study of Caenorhabditis elegans with 4 samples.

Results

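The srw and srz genes of *Caenorhabditis elegans* were taken by symbol (srw or srz, a hyphen and a number) from the RefSeq gene table of assembly WBcel235. There were 145 srw genes and 105 srz genes, 250 in all, among the 21892 protein-coding genes and pseudogenes of the table. Occupancy by HPL-2 came from chromatin immunoprecipitation and sequencing (ChIP-seq) of wild-type N2 worms at the L3 larval stage, males and hermaphrodites mixed, grown at 20 °C. The study has 2 libraries precipitated with SDQ2340, a rabbit polyclonal antibody to HPL-2, and 2 libraries of input DNA. The peak lists of the 2 ChIP libraries and 1 list for the whole series were used, with 20533, 16490 and 23530 peaks. No group differs in genotype or treatment, so the comparisons are between genes. Whole larvae were used, so strong binding in a few cells and weak binding in many cannot be told apart.

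srw and srz genes encode predicted chemoreceptors, membrane receptors coupled to G proteins that nematodes use, mainly in ciliated sensory neurons, to detect chemicals. Both families stand outside the large chemoreceptor superfamilies of the worm. The srw proteins resemble receptors for FMRFamide-like and other peptides, and srz is known as a fast-evolving family with many recent duplicates. HPL-2 is one of the worm's HP1 proteins, which bind chromatin carrying methylated lysine on histone H3 and are associated with silent genes and repeats.

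A gene was called bound when the gene body plus 500 bp on both sides overlapped, by at least 1 bp, a peak of the series-level list and of both replicate lists. The gene table gives no strand, so the upstream side could not be told from the downstream side. The count for the body plus 500 bp upstream therefore lies between the count with both sides and the count for the body alone, and both are given. Peaks are on WormBase WS220 and genes on WBcel235. Adding 150 bp to each side of the window added srw-82 and srw-128 to the bound genes and taking 150 bp off removed srw-112. Neither changed the call of any srz gene.

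Few genes of either family carried HPL-2 peaks. Of the srw genes, 16 of 145 (11%) were bound, and of the srz genes, 12 of 105 (11.4%), against 24.1% of all genes in the table. With the gene body alone, 11 srw genes (7.59%) and 6 srz genes (5.71%) were bound, against 17.1% of all genes. No list had a peak in the window of 109 srw genes (75.2%) and 85 srz genes (81.0%), compared with 55.3% of the 21642 other genes. No test was made of these differences, because genes are not replicates, neighbouring genes share peaks, and an exact sign-flip permutation test over 2 replicate lists cannot give a two-sided p below 0.5.

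Each replicate list had a peak at a smaller share of the families than of other genes. Replicate 1 had a peak at 27 srw genes (18.6%) and 15 srz genes (14.3%), against 36.0% of all genes. Replicate 2 had one at 25 srw genes (17.2%) and 17 srz genes (16.2%), against 30.4% of all genes. The mean over the 2 lists was 17.9 ± 0.98% for srw, 15.2 ± 1.3% for srz and 33.4 ± 4.0% for other genes (SD, n = 2 lists). In both lists the share of other genes was above those of srw and srz. The series-level list had a peak at 32 srw genes (22.1%) and 19 srz genes (18.1%), against 40.8% of all genes. Of the srw genes with a replicate 1 peak, 59.3% also had a replicate 2 peak, and of those with a replicate 2 peak 64.0% had one in replicate 1. For srz genes these shares were 80.0% and 70.6%, and for other genes 67.0% and 79.4%. The srw shares were below those of other genes in both directions, and the srz shares in 1 of them. Without the replicate 2 list, 27 srw and 15 srz genes had a peak in the remaining lists, and without the replicate 1 list 21 and 16.

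**Figure D1:**
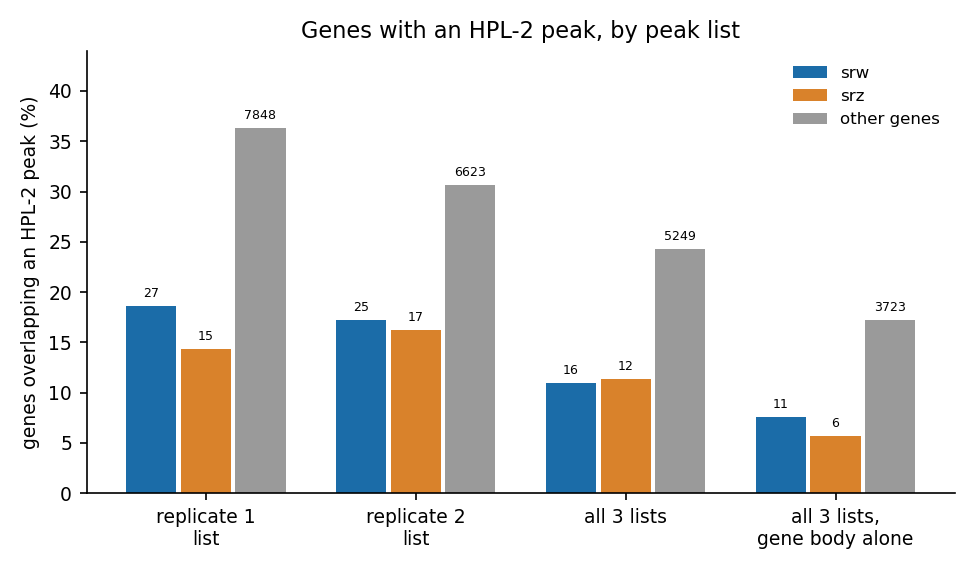
Share of srw, srz and other genes (vertical axis, %) whose gene body plus 500 bp on both sides overlapped a peak of each replicate list and of all 3 lists, and whose body alone overlapped a peak of all 3 lists; numbers above bars are genes. In each of these counts other genes stood highest, from 17.2% with the gene body alone to 36.3% in replicate 1.

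The sign of the difference between the families depended on the rule for calling a gene bound. The share of srw genes with a peak minus that of srz genes was 4.33 points of percent in the replicate 1 list and 1.05 in that of replicate 2, with a mean of 2.69 ± 2.3 (SD, n = 2 lists). For genes bound in all 3 lists the difference was -0.394 points, and for the gene body alone 1.87 points. The mean over the replicate lists was slightly above its SD, and no test was made. These values show neither that the families differ nor that they are alike. Genes of both families were of similar length, with a median of 1565 bp for srw and 1541 bp for srz, against 1935 bp for other genes.

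In bases, the occupied part of the genes was small. The median window had 0% of its bases in peaks in every list, for both families as for other genes. The mean was 1.97% in replicate 1 and 1.38% in replicate 2 for srw, and 1.62% and 1.68% for srz. Other genes had 6.75% and 4.44%. In the series-level list the means were 2.39% for srw, 2.23% for srz and 8.03% for other genes. The srw mean rested in part on the pseudogene srw-78 in the centre of chromosome V, described below, and was 1.53% in replicate 1 without it. Without srz-5, the srz gene with the largest share of its window in peaks, the srz means were 1.31% and 1.48%.

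Among bound members, the srz gene with the largest share of its window in peaks was srz-5, on the left arm of chromosome II. Its window had 34.2% of its bases in peaks in replicate 1 and 22.0% in replicate 2. A peak from 3513688 to 3514362 (675 bp, score 91.52) lay wholly in its body. A second peak, from 3510859 to 3512313 (1455 bp), reached 124 bases into the flank of srz-5 and overlapped the body of the neighbouring gene Y49F6B.19. Its score of 102.28 equals the highest in the series-level list. Scores are the authors' values and their scale is not given.

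The next srz genes by coverage in both replicates lay on 3 other chromosomes. srz-25, on the right arm of V, had 26.1% of its window in replicate 1 peaks and 19.3% in replicate 2 peaks. srz-74, on the right arm of IV, had 10.2% and 17.3%, from a single series-level peak inside its body (16330401 to 16330824). The pseudogene srz-7, near the left end of III, had 9.46% and 18.3%, also from 1 peak inside the body (151031 to 151440). The order of the replicates thus differed from gene to gene, with replicate 1 higher at srz-5 and srz-25 and replicate 2 higher at srz-74 and srz-7.

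Among bound members, the most occupied srw gene was srw-66, on the left arm of II. Its window had 18.6% of its bases in replicate 1 peaks and 13.7% in replicate 2 peaks, from 2 series-level peaks inside the body (1270032 to 1270340 and 1271150 to 1271579). The bound gene srz-64, whose 2 peaks lie at 1290102 to 1290301 and 1292156 to 1292401, is on the same arm. The pseudogene srw-131, on the left arm of V, had 15.4% and 13.4%. One of its 2 peaks (3006494 to 3006735, score 6.23) also reached the flank of srw-112, which was called bound by 26 bases in replicate 1 and 41 bases in replicate 2, the smallest overlaps of any bound member. The pseudogene srw-47 had 11.3% and 11.6%, and the pseudogene srw-30 had 11.1% and 11.4%, so at these genes the covered shares were nearly equal in the replicate lists.

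The highest-scoring peak at an srw gene lay beside srw-60 on the left arm of II, from 2961951 to 2962422 (score 73.8), outside the gene body. The srw-60 window had 10.2% of its bases in replicate 1 peaks and 8.98% in replicate 2 peaks. The long pseudogene srw-45 (8325 bp) carried 6 series-level peaks, more than any other bound member, and had 17.1% of its window in peaks in replicate 1 and 8.97% in replicate 2. The other bound srw genes, named here because they were bound, were srw-31, srw-35, srw-51, srw-63, srw-72, srw-74, srw-83, srw-85 and srw-87. The other bound srz genes were srz-6, srz-26, srz-33, srz-57, srz-58, srz-84 and srz-97. Over all bound members the median coverage was 9.02% in replicate 1 and 8.98% in replicate 2 for srw, and 9.83% and 7.83% for srz. These medians describe genes chosen for having a peak.

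**Figure D2:**
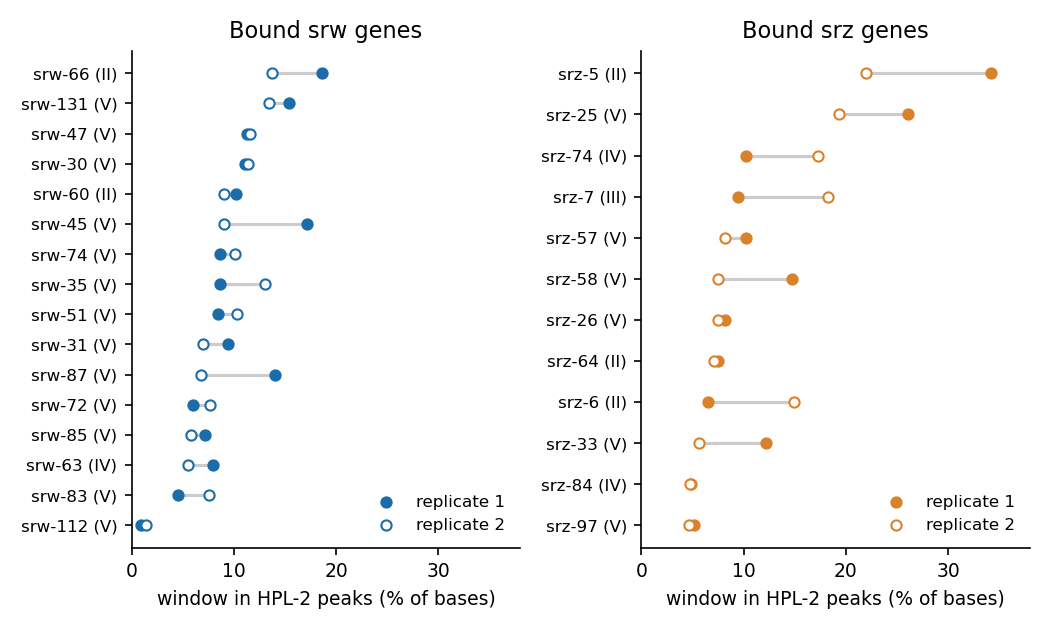
Percent of bases of the gene body plus 500 bp on both sides that lie in peaks of replicate 1 (filled points) and replicate 2 (open points), for the 16 bound srw genes and the 12 bound srz genes, with the chromosome in brackets. srz-5 has the highest coverage in both replicates (34.2% and 22.0%) and srw-112 the lowest (0.889% and 1.40%).

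Bound members included pseudogenes of both families. Among srw pseudogenes 5 of 36 were bound (13.9%) and among protein-coding srw genes 11 of 109 (10.1%). Among srz pseudogenes 5 of 42 were bound (11.9%) and among protein-coding srz genes 7 of 63 (11.1%). Over the whole table the shares were 18.1% of pseudogenes and 24.7% of protein-coding genes. With the gene body alone, 13.9% of srw and 4.76% of srz pseudogenes were bound, against 9.71% of other pseudogenes, so srw pseudogenes were then above other pseudogenes. This srw share rests on 5 genes, of which srw-30, srw-45, srw-47 and srw-74 lie in 1 stretch of the right arm of V, described below. Among protein-coding genes the body-alone shares were 5.50% for srw and 6.35% for srz, against 17.9% of other genes.

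The peaks lay in the body at some bound genes and beside it at others. Of the 16 bound srw genes, 11 had peaks of all 3 lists in the body and 5 only with the flanks, namely srw-35, srw-60, srw-63, srw-87 and srw-112. Of the 12 bound srz genes, 6 had them in the body. Of the 5249 bound other genes, 3723 did. The bound srz genes with peaks of all 3 lists only when the flanks were included were srz-6, srz-26, srz-57, srz-58, srz-84 and srz-97. The inner of 3 equal parts of the gene body was covered by replicate 1 peaks over 3.17% of its bases in srw genes and 1.78% in srz genes, against 9.49% in other genes. The outer parts had 1.82% in srw and 2.21% in srz genes, against 8.39% in other genes. In replicate 2 the inner part had 2.71% in srw and 2.38% in srz genes, against 6.34% in other genes. The outer parts had 1.03% and 1.70%, against 5.59%. The inner part was thus above the outer parts in srw and in other genes in both replicates, while the srz order differed between replicates.

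Peaks at some bound srz genes also lay on another gene. At 4 of the 12 bound srz genes a peak found in both replicates overlapped the body of a gene outside the families. These genes were Y49F6B.19 at srz-5, col-85 (a collagen gene) at srz-6, hsp-16.20 (by its name a small heat shock protein gene) at srz-97, and F19B2.10 and F19B2.12, which overlap srz-33. Of these 4, only srz-6 had no further peak, found in both replicates, that touched no gene outside the families. At the 16 bound srw genes no such peak overlapped another gene outside the families. Neighbouring members sometimes shared 1 peak. The peak from 17317845 to 17318066 lay in the flanks of both srz-26 and srz-58, and the one from 17542365 to 17542616 in those of srz-25 and srz-57.

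The peaks at these genes were of usual size. The 40 series-level peaks that overlapped srw windows had a median width of 231 bp, the 26 at srz windows 234 bp, and the whole list 259 bp. Their median score was 12.4 for srw and 20.7 for srz, against 13.2 for the whole list. Of the peaks at srw windows 20.0% were in the top 25% of scores of the list, and of those at srz windows 34.6%. When each list was limited to peaks at or above its own median score, 4 srw genes (2.76%) and 9 srz genes (8.57%) remained bound, against 14.5% of other genes. Under this rule the difference of srw minus srz was -5.81 points. It rests on 4 and 9 genes, and its spread between the replicate lists was not computed.

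Several members had peaks in 1 replicate alone. The largest case was srw-78, in the centre of V. A series-level peak from 7432138 to 7434576 (2439 bp, score 42.17), which also overlaps ddo-2, filled 65.1% of its window. Replicate 1 covered 65.3% of the window and replicate 2 none of it. In all, 11 of 145 srw genes had a peak in replicate 1 only and 9 in replicate 2 only, and for the 105 srz genes the numbers were 3 and 5. Such genes were not particular to the families. Among all 21892 genes, 2603 had a peak in replicate 1 only and 1378 in replicate 2 only. Of the 3 srw genes on chromosome III, srw-5 had a replicate 1 peak (5.08% of the window), srw-9 a replicate 2 peak (8.33%), and srw-10 none. The srz genes on chromosome I, srz-3, srz-4 and srz-85, had no peak in any list.

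The families lie mostly on chromosome arms, where other genes were often bound. Each chromosome was cut into 3 parts of equal length, of which the outer ones are called arms. Of the members, 134 srw and 102 srz genes are on arms, and of these 11.9% and 10.8% were bound, against 31.4% of other genes on arms. In the chromosome centres 0 of 11 srw genes and 1 of 3 srz genes (srz-84) were bound, against 11.8% of other genes. On arms, longer other genes were bound more often. Among genes up to 1000 bp there, 1 of 6 srw genes and 0 of 4 srz genes were bound, against 18.7% of other genes. Among genes over 1000 and up to 2000 bp on arms, 10.4% of 106 srw genes and 8.64% of 81 srz genes were bound, against 20.4% of 4248 other genes. Among genes over 2000 and up to 3000 bp on arms, 1 of 17 srw genes and 1 of 11 srz genes were bound, against 28.1% of other genes. Among genes over 3000 bp on arms, 3 of 5 srw genes and 3 of 6 srz genes were bound, close to the 52.2% of other genes.

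Chromosome V holds 127 srw genes and 47 srz genes. On its left arm 2 of 53 srw genes were bound (3.77%), against 22.0% of other genes on that arm. On its right arm 11 of 65 srw genes (16.9%) and 6 of 46 srz genes (13%) were bound, against 25.2% of other genes. Among right-arm genes over 1000 and up to 2000 bp the shares were 15.4% for srw, 10.8% for srz and 17.0% for other genes. There the srw share was close to that of other genes, with the gene body alone at 13.5% for srw, 2.70% for srz and 9.59% for other genes.

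Chromosome IV holds 43 srz genes, of which 2 were bound (4.65%). On its left arm 0 of 22 srz genes were bound, where 457 of 1098 other genes were (41.6%). Among genes over 1000 and up to 2000 bp on this arm, 0 of 21 srz genes and 28.4% of 292 other genes were bound. One srz gene there had a peak in replicate 1 and 1 in replicate 2. srz-83 was the gene with a replicate 1 peak, which covered 8.94% of its window. On the right arm 1 of 20 srz genes was bound, srz-74, against 246 of 1069 other genes. Chromosome II differed in direction. On its left arm 2 of 5 srw genes (srw-60 and srw-66) and 2 of 5 srz genes (srz-5 and srz-64) were bound, against 25.6% of other genes, and the single srz gene of its right arm, srz-6, was also bound. These counts are small.

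**Figure D3:**
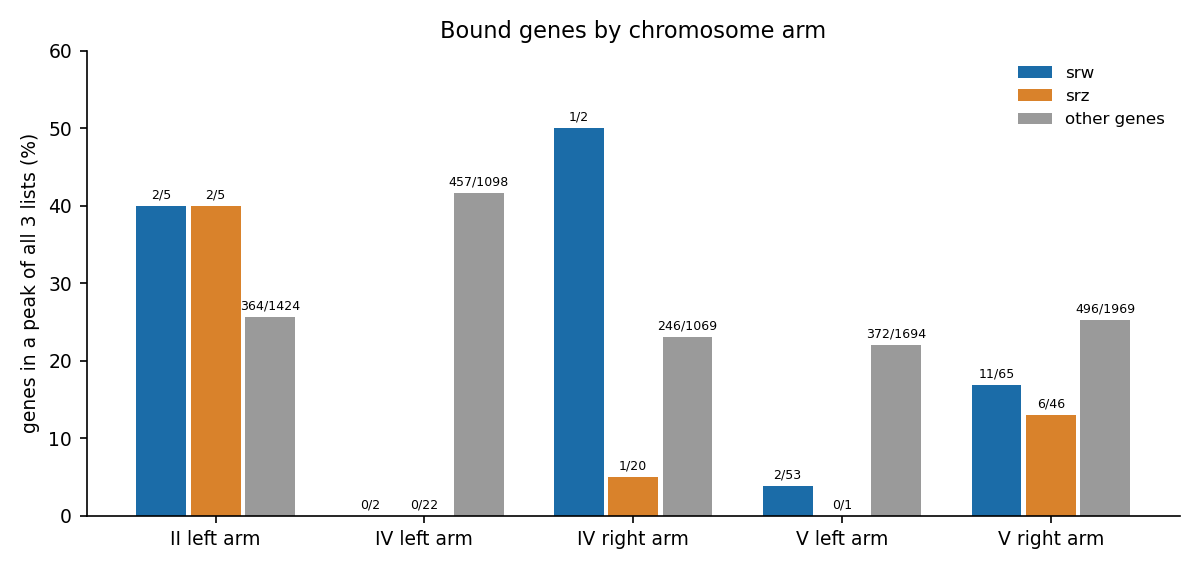
Share of srw, srz and other genes (vertical axis, %) bound in all 3 lists on the left arm of II and both arms of IV and V, with bound genes over all genes above each bar. The right arm of I also holds both families (0 of 4 srw genes and 0 of 1 srz gene bound) and is not shown. No srz gene of 22 on the left arm of IV was bound, against 41.6% of other genes (28.4% of those over 1000 and up to 2000 bp).

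Members that stand alone were bound more often than members of large groups. Members of a family with gaps of up to 20 kb between them were joined into groups, a rule chosen with the bound genes known. Of the srw genes, 39 stood alone and 69 lay in groups of 5 or more, and 9 of the lone genes (23.1%) and 2 of the grouped ones (2.90%) were bound. Of the srz genes, 18 stood alone and 38 lay in groups of 5 or more, and 5 (27.8%) and 1 (2.63%) were bound. The lone shares were thus near the 24.1% of all genes, and below the 31.4% of other genes on arms. In groups of 2 to 4, 13.5% of srw and 12.2% of srz genes were bound. In replicate 1 a peak lay at 25.6% of lone and 13% of grouped srw genes, and in replicate 2 at 25.6% and 11.6%. For srz the shares were 33.3% and 5.26% in replicate 1, and 27.8% and 10.5% in replicate 2. Lone minus grouped was 13.3 ± 1.0 points for srw and 22.7 ± 7.6 points for srz (SD, n = 2 lists). For genes bound in all 3 lists it was 20.2 points for srw and 25.1 for srz. Without the replicate 2 list the srw value was 12.6 points and without the replicate 1 list the srz value was 17.3 points. With the gene body alone the srw value was 13.9 points and the srz value 8.48. With the series-level list alone they were 10.8 and 20.2 points, and with gaps of up to 50 kb 10.6 and 23.4.

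The 20 other chemoreceptor families, each grouped in the same way, had values closer together for genes bound in all 3 lists. Of their lone genes 12.7% were bound and of those in groups of 5 or more 9.04%. Gene length moved with group size. The median was 1652 bp for lone and 1431 bp for grouped srw genes, and 1622.5 and 1562 bp for srz. Place on the chromosomes moved with it too. The srz groups of 16 and 14 genes lie on IV, where 2 of 43 srz genes were bound. The bound lone srz genes were srz-5 and srz-6 on II, srz-7 on III, srz-84 on IV and srz-97 on V. The srw group of 26 genes lies on the left arm of V, where 2 of 53 srw genes were bound. The srw groups of 12 and 10 genes lie on the right arm of V, where 11 of 65 were. The parts of length and place in the difference were not tested. Nor was that of reads that map to several places, whose treatment is not stated. With gaps of up to 50 kb, 13% of lone srw genes and 2.41% of those in groups of 5 or more were bound, and 28.2% of those in groups of 2 to 4, so for srw the order of lone genes and small groups depended on the gap.

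The largest groups held few bound members. The largest srw group, 26 genes from srw-141 to srw-135 over 74.2 kb on the left arm of V, held the bound genes srw-112 and srw-131 and 24 that were not bound. The next, 12 genes from srw-24 to srw-19 over 57.4 kb on the right arm of V, had no peak of any list along its whole length. The largest srz group, 16 genes from srz-60 to srz-83 over 77.2 kb on the left arm of IV, held no bound member, and 1 of the 16 other genes inside it was bound. The group of 14 srz genes from srz-75 to srz-38 on the right arm of IV (49.9 kb) held srz-74 as its only bound member, and 3 of the 10 other genes inside it were bound. The members farthest from a series-level peak were srw-11, at 46645 bp, srw-12 and srw-50 on the right arm of V, and, for srz, srz-20, at 29847 bp, srz-49 and srz-19.

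**Figure D4:**
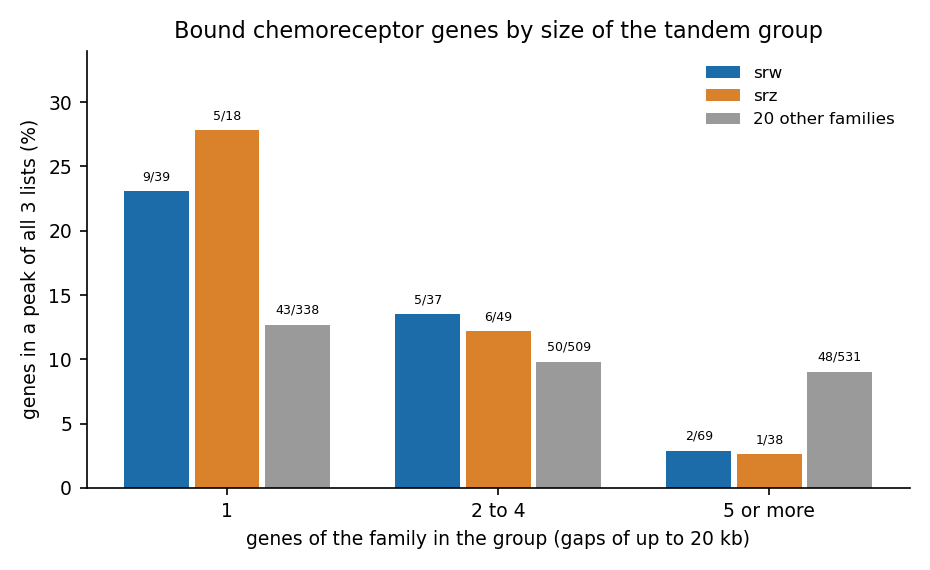
Share of genes bound in all 3 lists (vertical axis, %) by the number of genes of the same family in the group (gaps of up to 20 kb), for srw, srz and 20 other chemoreceptor families, with bound genes over all genes above each bar. In groups of 5 or more, 2 of 69 srw and 1 of 38 srz genes were bound, against 48 of 531 in the other families.

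One stretch of the right arm of V held many of the bound members. It was singled out after the calls were seen, and its limits are peaks of bound members. From 17170135 to 17542616 (372 kb), 7 of 9 srw genes were bound in their bodies (srw-51, srw-74, srw-47, srw-30, srw-72, srw-31 and srw-45). Of the 11 srz genes there, 4 were bound (srz-26, srz-58, srz-25 and srz-57), and with the gene body alone 1, srz-25. Over the rest of the right arm 4 of 56 srw genes (7.14%) and 2 of 35 srz genes (5.71%) were bound. Of the other genes, 23 of 118 were bound in the stretch (19.5%) and 25.6% over the rest of the arm. Bound members set the limits and other genes did not. The high member share inside thus follows in part from that choice, and no conclusion is drawn from the contrast. Of its 9 srw genes 5 are pseudogenes. Peaks covered 4.59% of the bases of the stretch in replicate 1 and 3.61% in replicate 2. Without the stretch, 14.3% of 35 lone srw genes and 2.90% of 69 srw genes in groups of 5 or more were bound, and 31.2% of 16 and 2.63% of 38 srz genes, a lone minus grouped difference of 11.4 points for srw and 28.6 for srz.

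Genes near the members were also bound less often than genes farther away. Of the other genes within 10 kb of an srw gene, midpoint to midpoint, 63 of 449 were bound (14%), and of those over 250 and up to 1000 kb away 24.6%. For srz the shares were 16.3% of 338 and 27.2%. The same order held in replicate 1, with 23.8% and 35.9% around srw genes and 22.2% and 39.4% around srz genes, and in replicate 2, with 22.3% and 32.1%, and 21.6% and 34.1%. Other chemoreceptor genes made up 102 of the near neighbours of srw and 56 of those of srz. With those families left out, 16.4% of near neighbours of srw and 19.1% of near neighbours of srz were bound, against 25.4% and 28.0% of the distant genes. Near neighbours were shorter, with a median of 1441 bp around srw and 1376.5 bp around srz, against 1847 and 1873 bp for the distant genes, and the part of length in this order was not tested. The left arm of II again went the other way, with 41.7% of 175 other genes within 50 kb of a member bound and 23.3% of those farther away.

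**Figure D5:**
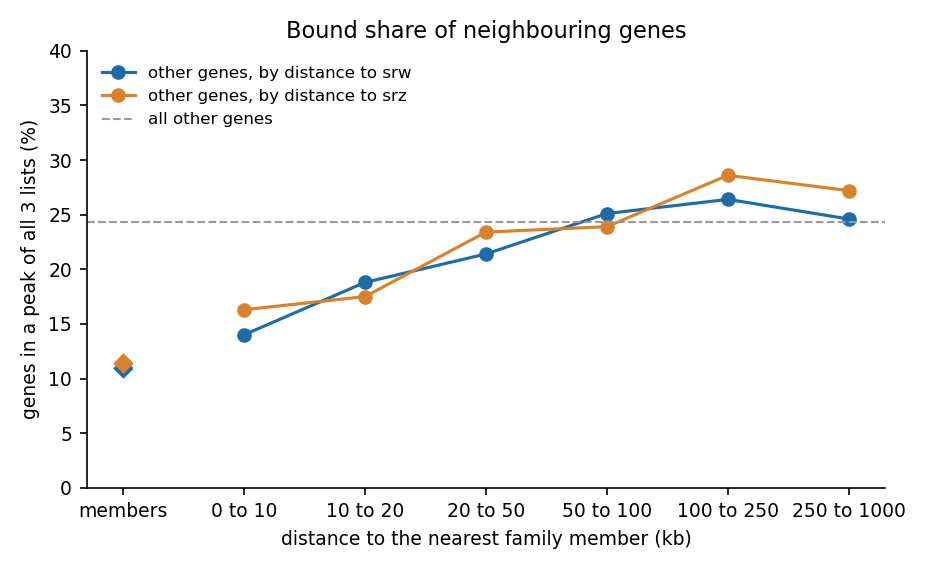
Share of other genes bound in all 3 lists (vertical axis, %) by distance in kb to the nearest srw or srz gene (lines), with the families themselves (diamonds) at the left and all other genes as the dashed line (24.3%). The share is lowest within 10 kb, at 14% around srw and 16.3% around srz genes.

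The srw and srz shares lay among those of the other chemoreceptor families. Over 20 such families with 1378 genes, 10.2% were bound, and 5.81% with the gene body alone. In the large srh and str families 11.6% of 292 and 6.64% of 226 genes were bound. Among the 14 families with at least 30 genes the share ran from 2.50% in srsx to 25.0% in sre, and 3 of them were above both srw and srz. A list of chemosensory genes was also counted, many of which act beside or after the receptors in sensory neurons, and which includes the receptor gene odr-10. Of the 37 genes of this list that were found, 8 were bound (21.6%), against 24.1% of all genes and 41.4% of other genes over 3000 bp. Most of the list lies in chromosome centres, where 11.8% of other genes were bound, and no share matched for both place and length was computed. The bound genes of the list were the G protein subunits gpa-1, gpa-7 and gpa-9, the guanylyl cyclases odr-1 and gcy-23, the channel gene osm-9, the calcineurin gene tax-6 and the G protein regulator eat-16. The cyclic-nucleotide-gated channel genes tax-2 and tax-4 and the odorant receptor gene odr-10 had no peak in any list. Genes of this list have a median length of 3569 bp.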

How the data were processed

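The members, gene lists and rules were chosen with earlier results of these data known. Peak lists were used as the authors deposited them. Their positions are on WS220 per the file headers, and MACS is named in their source column. BWA and ce10 come from the submitters' processing notes. The MACS version, threshold and control, the making of the series-level list and the treatment of reads that map to several places are not stated in the labels or headers. Each deposited peak carries a score of unstated scale, used only to rank or filter within a list. Read depth is unknown, so no interval is given, and a list without a peak does not show absence of binding. The input libraries were not analysed here. Nothing says that the replicates came from separate cultures, so their spread may be technical.

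Genes came from a RefSeq table of WBcel235 without strand, which held all members. The planned window of 500 bp upstream was therefore replaced by 500 bp on both sides, and planned parts of the gene were read without direction. Chromosome lengths were the largest peak ends. Overlaps were computed in Python 3.11.15 with pandas 2.3.3 and numpy 2.4.6, and checked on simulated intervals. No test was made, since sign flips over 2 lists cannot give a two-sided p below 0.5 in an exact permutation test. Named genes were the 6 bound members per family with the largest smaller-of-2-replicates coverage, the 3 farthest from a peak, the ends of the 2 longest runs of bound members, the one under the highest-scoring peak, members on chromosomes with 3 or fewer, and those whose call changed with 150 bp of padding. The other bound members were named after their values were seen. Alternatives covered the window, overlap, score, lists and gene type. Sequence features were not analysed here.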

Additional observations from a re-analysis of the deposited data

How the results depend on the processing

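Of 69 alternative values over 7 results, 31 moved by less than the SD between the replicate lists. That SD rests on 2 lists, and for the srz share of bases it is only 0.04 points, so it is a weak yardstick. Both families were below other genes in all 14 settings of the bound share. The bound share of srw and srz was 7.59% and 5.71% with the gene body alone, 19.3% and 18.1% with 2000 bp on both sides, 2.76% and 2.86% when at least 10% of the window had to lie in peaks, 2.76% and 8.57% with peaks at or above the median score, and 22.1% and 18.1% with the series-level list alone. With 150 bp added it was 12.4% for srw. Leaving out a replicate list gave 14.5 to 18.6% for srw and 14.3 to 15.2% for srz. The difference of srw minus srz was -5.81 points with peaks at or above the median score, 3.97 with the series-level list alone, and -0.755 to 4.33 with a replicate list left out. As the main difference was -0.394 points, its sign depended on the setting.

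The mean share of window bases in peaks was 2.93% for srw and 2.63% for srz with 2000 bp on both sides, 1.42% and 1.80% with peaks at or above the median score, and 1.68% and 2.46% for protein-coding members. It was 1.38% for srw in replicate 2. For srz it was 2.15% with 150 bp added, 2.30% with 150 bp taken off, 2.07% with the gene body alone, 1.62% in replicate 1 and 1.68% in replicate 2.

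The alternatives for lone against grouped members were chosen after the data were seen. The srw difference was 10.6 points with gaps of up to 50 kb, 13.9 with the gene body alone, 10.8 with the series-level list alone, 11.4 without the stretch of V, and 12.6 to 18.4 with a replicate list left out. The srz difference was 8.48 points with the gene body alone and 17.3 to 28.1 with a replicate list left out. The cause of these changes was not tested. No paired analysis was possible because only the ChIP libraries, and not the inputs that carry the same numbers, have peak lists here.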
